A study of Homo sapiens with 4 samples.

Results

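LINC genes are long intergenic noncoding RNA genes that carry no name for a function, only the letters LINC and a 5-digit number. They were measured here in spheres of U87MG, a long-established line from a human glioblastoma, in a medium for stem cells. The 238 members were chosen by name and by total: their expected counts, summed over the 4 libraries, came to 50 or more. They were drawn from 2105 LINC genes, of which 920 had any count, among 60617 listed genes. The name LINC01238 is carried by 2 identifiers, so the 238 identifiers hold 237 names. No contrast between the groups entered this choice, and the total weights both groups alike. A member high in one group and absent from the other could therefore enter: 7 members had under 10 counts over the abemaciclib libraries and 5 over the untreated libraries. All 238 members passed the filter on low counts, and the counts of calls over them are descriptions. By annotated type, 196 members were lincRNA (long intergenic noncoding RNA) and 2 were protein-coding. The rest were of other types, such as antisense or transcribed pseudogene.

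The study set 2 poly-A libraries of spheres exposed to abemaciclib, which inhibits the cell cycle kinases CDK4 and CDK6, beside 2 libraries of untreated spheres, all at day 14. The medium of both groups contained N2, 2% B27, and the growth factors EGF and bFGF (20 ng/ml). The abemaciclib dose is unknown here, as is any vehicle in the untreated spheres. U87MG is a single line, and the labels do not say whether replicate libraries had separate cultures as their source, so the spread behind the p-values may be technical.

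Long intergenic noncoding RNAs are transcribed by RNA polymerase II, and many are capped, spliced and polyadenylated like messenger RNAs. They tend to be present at few copies and to be restricted to particular cell types. Some act on genes near their own locus, some host small or circular RNAs, a few are translated into short peptides, and most have no known role.

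The abemaciclib libraries held 23684260 and 33226884 expected counts, and the untreated libraries held 27485206 and 33418075. Levels are in CPM, counts scaled to a common library size after TMM normalization, and 3 counts equal 0.0886 to 0.125 CPM. Replicates were not copies of each other: the chi-square between them, per degree of freedom, was 1.95 for abemaciclib and 3.56 for untreated libraries. Mitochondrially encoded genes took 11.8% and 11.7% of the abemaciclib counts and 4.27% and 4.66% of the untreated counts. The nuclear RNA MALAT1 stood at 121 and 114 CPM in abemaciclib spheres, against 276 and 283 CPM in untreated spheres. The part of these shifts in the LINC values was not tested. The 6 mesenchymal glioma markers VIM, CD44, TNC, SPARC, FN1 and CHI3L1 summed to 15627.5 and 15669.2 CPM with abemaciclib and to 45578.9 and 45848.2 CPM without it. In bulk RNA, fewer cells of a kind and less RNA per cell cannot be told apart.

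As a class, the LINC genes held nearly the same small share of the RNA in both groups, while single members moved far apart. The 238 members together took 0.144% and 0.142% of the counts in abemaciclib libraries, against 0.139% and 0.141% in untreated libraries. Scaled by TMM, the sums were 1412.5 and 1392.5 CPM with abemaciclib and 1419.7 and 1435.9 CPM without. The wider set of all genes typed as lincRNA in the annotation was not flat. It took 0.505% and 0.502% of the counts with abemaciclib, against 0.591% and 0.593% without. The flat total of the members was made of opposite parts, sorted here by the direction of their calls. The 71 members that rose summed to 751 CPM in abemaciclib spheres and 279 CPM in untreated spheres. The 103 that fell summed to 501 CPM with abemaciclib and 997 CPM without, a difference of -496 CPM. The 64 not past the threshold summed to 151 CPM with abemaciclib and 152 CPM without.

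A few members carried much of this exchange. LINC02154 on chromosome X averaged 141 CPM in abemaciclib and 23.2 CPM in untreated spheres, a difference of 118 CPM. LINC00520 added 56.7 CPM, LINC01234 added 28.5 CPM, LINC01705 added 22.9 CPM and LINC00632 added 19.1 CPM. On the other side, LINC00963 had a difference of -42.8 CPM, LINC01089 of -31.7 CPM, LINC01128 of -27.5 CPM, LINC00668 of -23.1 CPM and LINC02693 of -19.2 CPM. LINC02693 is typed protein-coding in the annotation, overlaps other annotated genes, and had counts that were not whole.

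Of the 238 members, 71 rose (29.8%) and 103 fell (43.3%) at an adjusted p under 0.05 (edgeR quasi-likelihood test, Benjamini-Hochberg over all 17207 tested genes). The called members were 73.1% of the 238, against 77.3% of all tested genes, of which 38.0% were higher and 39.3% lower. A call was thus about as common among LINC genes as elsewhere. Large changes made up more of them: 50 members rose and 68 fell by at least 2-fold, together 49.6% of the members, against 31.2% of all tested genes (13.8% higher, 17.4% lower). Members have fewer reads than other genes, with a median total of 232 against 1590, so these shares are also given below at like depth. At 4-fold the counts were 21 higher and 31 lower of 238 members. Of all 17207 tested genes, 728 (4.23%) and 1265 (7.35%) were. The other genes typed as lincRNA in the annotation, 769 of them tested, had 53.7% past 2-fold, so this share was not particular to the LINC numbering. For 209 members (87.8%) both libraries of one group lay beyond both of the other, against 87.9% of all tested genes.

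**Figure D1:**
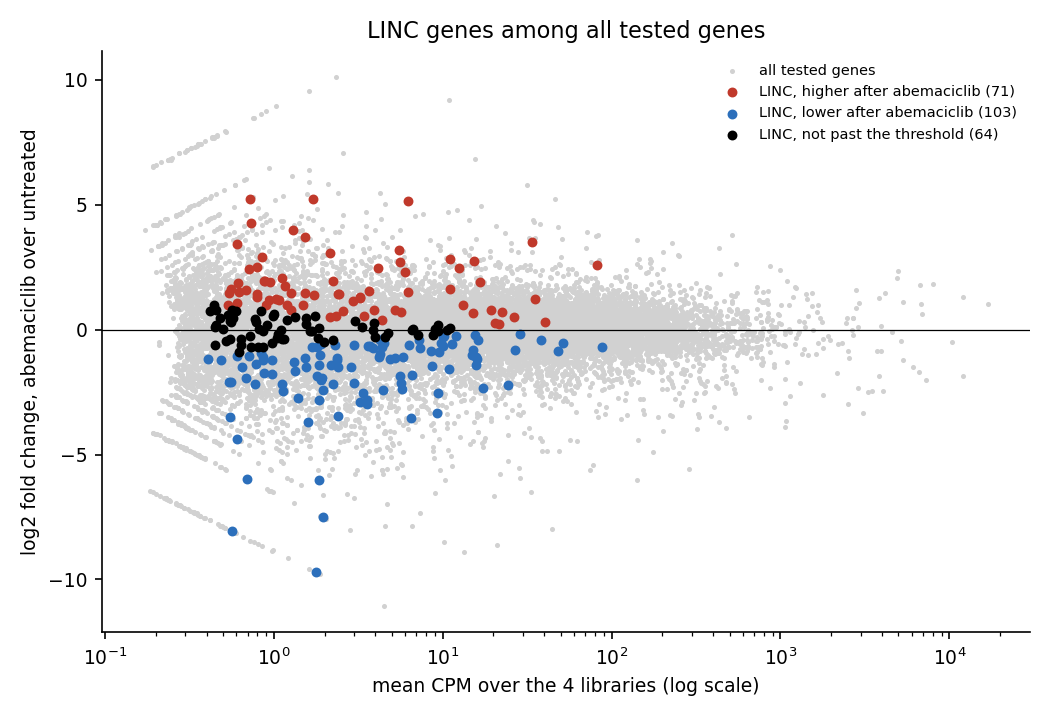
Each point is a gene, with its mean CPM over the 4 libraries on a log axis and its fitted log2 fold change (abemaciclib over untreated). The 71 LINC members that rose are red, the 103 that fell are blue, the 64 others are black and all tested genes are grey; LINC members lie toward the low end and reach far in both directions.

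The median log2 fold change was -0.25 over the members, against -0.01 over all tested genes, 0.03 over protein-coding genes (80.8% of which were called) and -0.35 over the other genes typed lincRNA. The lean depended on which members were counted. Of the members, 126 overlapped another annotated gene on either strand, and among these 31 rose and 59 fell with a median of -0.37. Among the 112 that overlapped none, 40 rose and 44 fell, with a median of 0.00. The sources used here do not say whether strand was used in counting, so reads of an overlapping gene may be included for 69 members with an overlap on the opposite strand only and 57 with one on the same strand. Of all 238 members, 38 had estimated counts that were not whole, where reads were divided among genes. This set shares members with the overlapping set. In that set 5 rose and 23 fell, with a median of -0.56, and the median of the remaining 200 was -0.02.

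Members with few reads and members with many did not look alike. Among members with totals under 200, 32 of 104 members rose and 29 fell (58.7% called, against 58.5% of all tested genes in that band), with a median of 0.17 against -0.20. From 200 to under 1000 counts, 23 of 85 rose and 47 fell (82.4% called, against 72.4%), with a median of -0.58 against -0.14. From 1000 counts up, 16 of 49 rose and 27 fell (87.8% called, against 85.5%), with a median of -0.25 against 0.04. Changes of at least 2-fold were called in 51.9% of the members in the lowest band, against 50.2% of all tested genes there. In the middle band the shares were 55.3% and 39.3%, and in the highest 34.7% and 20.1%. Thus at the lowest totals the members' 2-fold share was near that of all genes. At 4-fold, 10 rose and 11 fell of 104 members in the lowest band, against 256 and 394 of 2749 genes. In the middle band the counts were 6 and 16 of 85, against 150 and 330 of 3341. In the highest they were 5 and 4 of 49, against 151 and 304 of 10086.

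**Figure D2:**
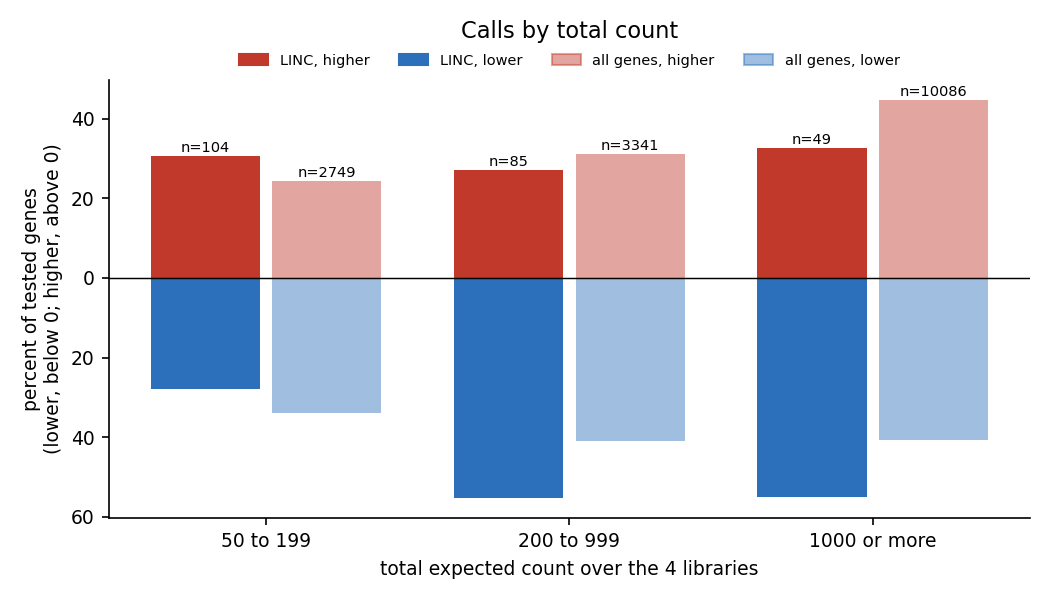
Bars give the percent of genes that rose (above 0) or fell (below 0) after abemaciclib in 3 bands of total count, with LINC members in full colour beside all tested genes in pale colour and the number of genes on each bar. In the 2 upper bands 55.3% and 55.1% of the members fell, against 41.1% and 40.7% of all genes.

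At the membership minimum, the members with the lowest totals were LINC01684, LINC01842 and LINC00271. LINC01684 had 10 and 21 counts with abemaciclib and 8 and 11 without. LINC01842 had 4 and 11 counts with abemaciclib and 12 and 23 without, and LINC00271 had 15 and 12 counts with abemaciclib and 12 and 13 without. Just under the minimum stood LINC00685, with 11 and 8 counts in abemaciclib and 14 and 16 in untreated libraries, then LINC00603 and LINC02245 with totals of 48 each. At this depth single counts move these values.

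Levels per length were low for most members. The median was 1.02 CPM per kb of exon, with quartiles at 0.42 and 2.27, and 118 members lay under 1 CPM per kb. The middle member had 2785 exon bases and 4 exons in its longest transcript model, and its nearest protein-coding gene lay 22.8 kb away. Only 6 members exceeded 10 CPM per kb: LINC01050, LINC02154, LINC01705, LINC01605, LINC02657 and LINC00973.

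LINC01050 on chromosome 13 had the highest level per length, at 53.2 CPM per kb over the 4 libraries. It stood at 46.3 and 43.4 CPM in abemaciclib spheres, against 34.5 and 37.7 CPM in untreated spheres. The groups did not overlap, and it rose by a log2 fold change of 0.30 ± 0.06 (SE, n = 2 each; edgeR adjusted p = 1.58e-05). LINC02154 was next at 52.7 CPM per kb and differed far more. It had 140 and 141 CPM with abemaciclib and 23.8 and 22.6 CPM without, with log2 fold change 2.60 ± 0.04 (edgeR adjusted p = 4.9e-30). LINC01705, at 27.4 CPM per kb, had 26.5 and 27.2 CPM in abemaciclib spheres and 4.15 and 3.79 CPM in untreated spheres, a log2 fold change of 2.76 ± 0.10. LINC02657 and LINC00973 went the other way. LINC02657 had 6.11 and 6.05 CPM with abemaciclib, against 10.6 and 11.6 CPM without, and LINC00973 had 8.56 and 7.50 CPM with abemaciclib, against 10.8 and 12.1 CPM without. LINC00294, an 8.69 CPM per kb member inside the TCP11L1 gene, had 27.2 and 27 CPM in abemaciclib spheres and 29.6 and 31.2 CPM in untreated spheres, and its call was lost under several other settings.

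The members that rose most were mostly barely present in untreated spheres. LINC02308, on chromosome 14 (GRCh38 chr14:81441987-81450157), had 11.5 and 12.8 CPM in abemaciclib spheres and 0.222 and 0.428 CPM in untreated spheres. Both treated libraries stood far above both untreated ones, with a log2 fold change of 5.17 ± 0.21 (SE, n = 2 each; edgeR adjusted p = 4.45e-20). LINC00520, also on chromosome 14 (chr14:55781132-55796731), had 62.0 and 62.4 CPM with abemaciclib and 5.59 and 5.38 CPM without, with log2 fold change 3.51 ± 0.07 (edgeR adjusted p = 7.93e-28). LINC00520 joined a high level to a large change, and no annotated gene overlaps it. LINC02392 on chromosome 12 had 18.9 and 20.0 CPM with abemaciclib, against 2.7 and 2.72 CPM in untreated spheres, a log2 fold change of 2.84 ± 0.12.

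The other members of this group had fewer reads. LINC01324 had 35 and 47 counts with abemaciclib and 1 count in each untreated library, a ratio of 42.3 with a 95% counting interval of 11.3 to 355. LINC01724 had 38 and 41 counts with abemaciclib and 3 and 1 without, and LINC01443 had 52 and 92 counts with abemaciclib and 7 and 2 without. LINC02798, LINC02388, LINC00968 and LINC01164 had log2 fold changes of 3.70 ± 0.38, 3.43 ± 0.52, 3.06 ± 0.29 and 2.91 ± 0.45. LINC00680 stood at 11.0 and 8.89 CPM with abemaciclib and 0.667 and 1.44 CPM without. It is annotated as a transcribed pseudogene and its counts were not whole, so its level is uncertain.

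The members that fell most were nearly silent in abemaciclib spheres. LINC02085 on chromosome 3 had 0 counts in both abemaciclib libraries and 116 and 93 in the untreated ones. With the abemaciclib group set to a floor of 3 counts, it was at least 67.6-fold lower; its estimated counts were not all whole. LINC01238 (ENSG00000237940), likewise at 0 with abemaciclib, had 32 and 35 counts in untreated libraries and was at least 21.7-fold lower. The other identifier under that name, ENSG00000261186, had 0.166 and 0.236 CPM with abemaciclib and 1.00 and 0.825 CPM without.

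LINC00887 had 1 and 0 counts in abemaciclib libraries against 124 and 105 in untreated ones, a 222-fold ratio with a counting interval of 39.5 to 8813.2. LINC02274 had 0 and 3 counts with abemaciclib and 102 and 115 without, a ratio of 70.2 (23.7 to 343). LINC01123 with 1 count over the group and LINC02473 with 3 counts had ratios of 77.6 (13.5 to 3103.5) and 22.3 (7.32 to 111). None of these 4 had more than 3 counts over the abemaciclib libraries, so the size of each fall is known only within wide limits.

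Other members kept some reads after abemaciclib. LINC01119 on chromosome 2 had 0.914 and 1.12 CPM in abemaciclib spheres and 12.1 and 11.9 CPM in untreated spheres, a log2 fold change of -3.53 ± 0.16 (SE, n = 2 each; edgeR adjusted p = 1.08e-18). LINC00622, a single-exon gene on chromosome 1, had 1.74 and 1.65 CPM with abemaciclib and 17.5 and 16.3 CPM without, a log2 fold change of -3.32 ± 0.14. LINC02019 had 0.457 and 0.354 CPM with abemaciclib, against 3.85 and 4.89 CPM in untreated spheres. LINC01127 fell by 3.70 ± 0.35 and LINC01198 by 2.97 ± 0.22 on the log2 scale. LINC02813 had 0 and 5 counts with abemaciclib and 33 and 27 without, few reads in all, and its log2 fold change was -3.50 ± 0.60. In every one of these 6 the treated libraries lay below both untreated ones, as the rule for choosing them required.

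**Figure D3:**
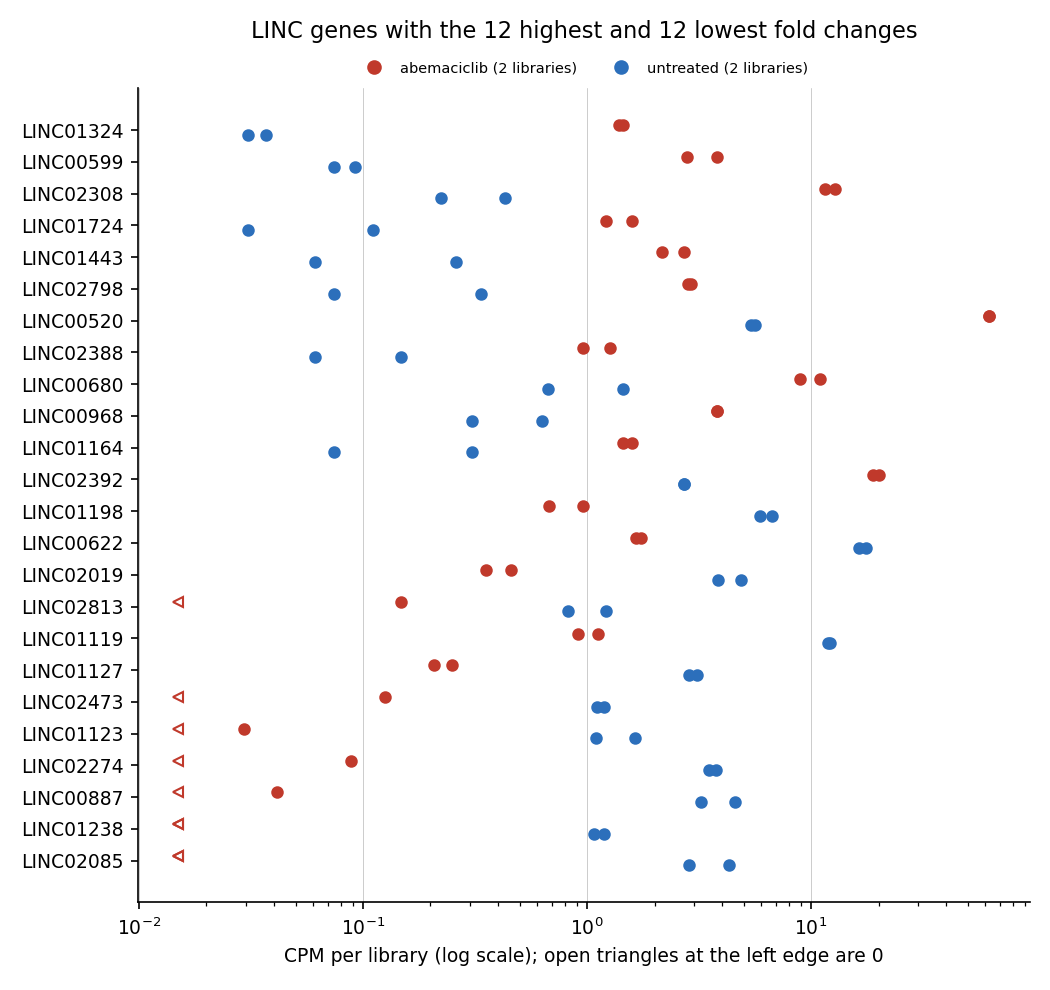
CPM on a log axis in each library for the 12 members with the highest and the 12 with the lowest log2 fold changes, ordered from the highest; red points are the 2 abemaciclib libraries and blue points the 2 untreated ones, with open triangles at the left edge for 0. The 2 colours are apart in every line, as the choice of members required. LINC02085 and an identifier of LINC01238 have 0 in both abemaciclib libraries.

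Some abundant members showed no call. LINC00869, LINC02035 and LINC01358 were the most abundant of them. LINC02035 had 10.3 and 10.8 CPM with abemaciclib and 10.2 and 11.1 CPM without, a log2 fold change of -0.01 ± 0.10. LINC00342 had 6.27 and 6.91 CPM with abemaciclib and 6.70 and 6.51 CPM without, a log2 fold change of 0.00 ± 0.13. LINC02268 had a log2 fold change of 0.03 ± 0.13 and LINC02263 one of -0.15 ± 0.15. LINC01232, LINC01719 and LINC00265 had log2 fold changes of 0.18, -0.21 and -0.21, each past the threshold under 1 of the other settings tried. A p that misses the threshold does not show that the level was the same; these standard errors leave room for small changes.

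Members were then read by role, from lists chosen with earlier results of these data known. The first list holds hosts of small or circular RNAs: 2 of 4 rose and 2 fell. With 77.3% of all tested genes called (38.0% higher, 39.3% lower), a list in which nearly every member is called is close to the background, here and in the lists that follow. MicroRNAs are cut from such host transcripts, and pair with targets through their seed, bases 2 to 8 of the mature strand. The mature sequences (RefSeq, GRCh38.p14) are shown for the brain-enriched miR-9 and for the 5p strands of the miR-30 genes within LINC00472, a member of another list, with the seed in capitals:
hsa-miR-9-5p: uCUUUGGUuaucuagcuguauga
hsa-miR-9-3p: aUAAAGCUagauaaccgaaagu
hsa-miR-30a-5p: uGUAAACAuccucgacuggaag
hsa-miR-30c-5p: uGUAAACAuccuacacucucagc
The 2 arms of miR-9 have different seeds, and miR-30a-5p and miR-30c-5p share the seed GUAAACA; the 3p strands of the miR-30 genes are not shown. The libraries held poly-A RNA, so mature microRNAs and circular RNAs were not measured.

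LINC00461, on chromosome 5, contains MIR9-2, a gene of miR-9, which is known for its part in neural differentiation. It had 6.44 and 4.72 CPM in abemaciclib spheres and 8.33 and 9.87 CPM in untreated spheres, and fell by 0.74 ± 0.14 in log2 units (edgeR adjusted p = 3.15e-05). LINC00599 moved the opposite way. It is known as a primary transcript of miR-124, another neuronal microRNA. LINC00599 had 92 and 95 counts with abemaciclib against 2 and 3 without, with log2 fold change 5.22 ± 0.42 (edgeR adjusted p = 1.22e-12). The neuron markers SNAP25, SYT1 and RBFOX3 summed to 63.6 and 59.3 CPM with abemaciclib and 46.8 and 48.5 CPM without. Only SNAP25 and SYT1 reached 1 CPM in any library, and the part of these markers in the LINC values was not tested.

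LINC00632 is known as the precursor of the circular RNA CDR1-AS. It stood at 26.2 CPM in both abemaciclib libraries and at 7.41 and 6.69 CPM in the untreated ones, with log2 fold change 1.90 ± 0.09 (edgeR adjusted p = 1.66e-18). It overlaps CDR1 on the opposite strand. LINC01138, which contains MIR5087, had 3.41 and 3.19 CPM with abemaciclib and 7.18 and 7.12 CPM without, and fell by 1.12 ± 0.15; its counts were not whole. LINC00472 spans MIR30A and MIR30C2 on chromosome 6. It belongs to the list of genes reported to be lowered in tumours and is not in the host count above. Nor is LINC00888, which spans SNORA63D and fell by 0.42 ± 0.12 in log2 units. LINC00472 had 3.20 and 3.28 CPM in abemaciclib spheres, against 1.63 and 2.23 CPM in untreated spheres, with log2 fold change 0.73 ± 0.21 (edgeR adjusted p = 0.00274).

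The list of LINC genes reported to encode a short peptide had 8 names, of which 1 was a member. LINC00467, whose peptide binds the mitochondrial ATP synthase, had 9.72 and 8.92 CPM in abemaciclib spheres against 11.7 and 10.4 CPM in untreated spheres. It fell by 0.25 ± 0.11 in log2 units (edgeR adjusted p = 0.0348), and that call was lost by DESeq2 (adjusted p = 0.206) and without abemaciclib replicate 2 or untreated replicate 1 (adjusted p = 0.251 each).

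Among LINC genes listed for the regions of developmental transcription factors, 4 of 6 were members, with 2 higher, 1 lower and 1 not past the threshold. LINC01116 was listed for the HOXD region, but its nearest coding gene is MTX2, 291563 bases away. It had 19.4 and 18.0 CPM in abemaciclib spheres, against 11.4 and 11.9 CPM in untreated spheres, a log2 fold change of 0.67 ± 0.09. LINC02381, beside the HOXC genes and overlapping SMUG1, fell by 1.51 ± 0.23, with 1.29 and 1.21 CPM in abemaciclib spheres and 3.44 and 3.64 CPM in untreated spheres. LINC00511, in the region of SOX9, gave a log2 fold change of 0.02 ± 0.12, and its groups overlapped.

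Of 13 LINC genes reported to be raised in tumours, 7 were members, and 5 rose and 2 fell, with a median log2 fold change of 0.80, against -0.01 over all tested genes. LINC00520 was the most changed and is described above. LINC00857 had 1.25 and 1.45 CPM in abemaciclib spheres and 0.222 and 0.244 CPM in untreated spheres. LINC01234 had 49.5 and 49.7 CPM with abemaciclib and 21.5 and 20.7 CPM without, with log2 fold change 1.23 ± 0.06 (edgeR adjusted p = 2.06e-18). LINC00346 had 25.9 and 23.7 CPM with the drug, against 13.0 and 15.2 CPM without the drug. LINC00460 rose by only 0.22 ± 0.07, a call that was lost by DESeq2 (adjusted p = 0.0811) and without untreated replicate 2 (adjusted p = 0.0725).

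The 2 that fell included the most abundant member by total count, 10333 over the 4 libraries. LINC00963, first described in prostate cancer, had 65.7 and 66.7 CPM with abemaciclib and 109 and 108 CPM without, with log2 fold change -0.71 ± 0.04 (edgeR adjusted p = 4.59e-17). LINC00662 had 7.81 and 7.65 CPM in abemaciclib spheres, against 13.6 and 11.1 CPM in untreated spheres.

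Of 7 LINC genes reported to be lowered in tumours, 3 were members. LINC00472 rose, as given above, and the others fell. LINC01089, known in mammary cells as a transcript that EGF represses, had 9.22 and 8.12 CPM in abemaciclib spheres and 39.8 and 40.9 CPM in untreated spheres, with log2 fold change -2.23 ± 0.08 (edgeR adjusted p = 5.35e-22). It overlaps RHOF and its counts were not whole. LINC00641 had 10.9 and 11.2 CPM with abemaciclib and 19 and 19.6 CPM without, a log2 fold change of -0.81 ± 0.09.

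LINC genes associated with other cell types were few. LINC00607, known from endothelial cells, had 1.87 and 1.92 CPM with abemaciclib and 1.67 and 1.96 CPM without, with overlapping groups. The endothelial markers PECAM1, CDH5 and VWF summed to 7.52 and 7 CPM in abemaciclib spheres, against 13.8 and 14.9 CPM in untreated spheres. Only PECAM1 and VWF reached 1 CPM in any library. CDH5 averaged 0.0771 CPM with abemaciclib and 0.0611 CPM without. Of 5 LINC genes on the lymphocyte list, LINC01550 fell by 1.08 ± 0.09 on the log2 scale and LINC00926 had a log2 fold change of -0.28 ± 0.16. The microglia and macrophage markers CD14, CD68, CSF1R and AIF1 summed to 1106.2 and 1078.7 CPM with abemaciclib and 524 and 515 CPM without; CD68 and CSF1R were the only ones at 1 CPM or more, and their part in the LINC values was not tested. The lymphocyte markers PTPRC, CD3E and MS4A1 were under 1 CPM in every library.

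**Figure D4:**
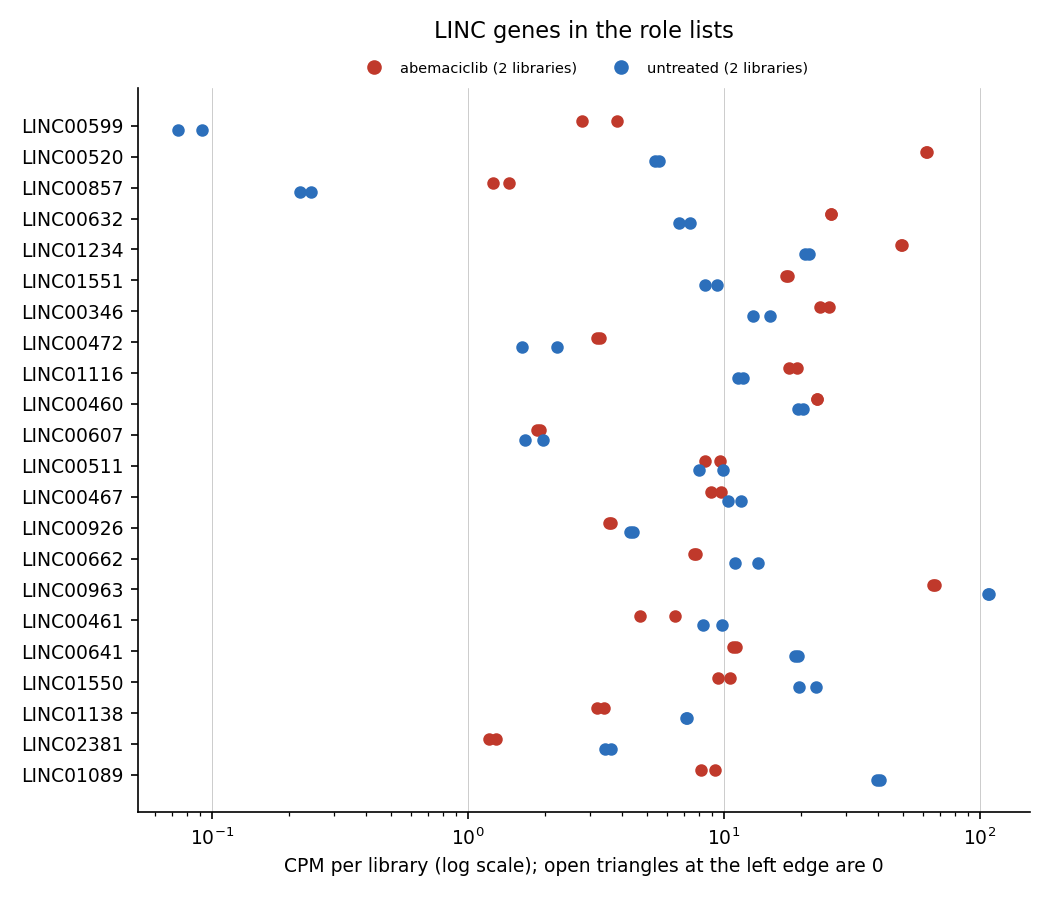
CPM on a log axis in each library for the 22 members of the role lists, ordered by log2 fold change; red points are the 2 abemaciclib libraries and blue points the 2 untreated ones. LINC00599 and LINC00520 are farthest apart at the top, LINC01089 at the bottom, and the colours overlap for LINC00607 and LINC00511.

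Position in the genome was examined next, since some LINC RNAs share a promoter region with a coding gene. Of the 238 members, 25 started within 5 kb of a protein-coding start on the opposite strand and are called divergent here. Of these, 5 rose, 13 fell and 7 did neither, with a median log2 fold change of -0.61. The rule did not require the genes to run apart: LINC01144 overlaps ZSWIM5, whose start is 2299 bases away. Of 19 others that overlapped a protein-coding gene, 5 rose and 11 fell (median -0.30). Some of the divergent members overlap one too and are not counted among the 19. Within 50 kb of one were 111 others, with 31 higher and 48 lower (median -0.21). Beyond 50 kb, 30 of 83 rose and 31 fell (median -0.03). All tested genes, for comparison, had 38.0% higher and 39.3% lower and a median of -0.01.

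The nearest protein-coding gene was tested for 192 of 237 pairs, and both genes were called in 112. Both rose in 19 pairs and both fell in 44. The LINC gene rose beside a lower neighbour in 24, and it fell beside a higher neighbour in 25. Thus 63 of the 112 pairs moved the same way. With 29.8% of members higher and 43.3% lower, and 38.0% and 39.3% of all tested genes, unrelated genes would also often share a direction. These counts were not compared with unrelated pairs. Across the 192 pairs the log2 fold changes had Pearson's r of 0.30 and Spearman's rho of 0.18, given as a description, since pairs share their libraries and are not independent. Of 12 divergent pairs with both genes called, 8 moved the same way, and the same limit applies to these few pairs.

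Several pairs fell together. LINC01004 starts 1135 bases from KMT2E, a chromatin regulator, on the other strand. LINC01004 had 0.748 and 1.00 CPM in abemaciclib spheres and 6.44 and 6.14 CPM in untreated spheres (log2 fold change -2.81 ± 0.21). KMT2E had 23.8 and 23.2 CPM with abemaciclib and 104 and 107 CPM without (-2.17 ± 0.05). LINC01127 and IL1R2, the decoy receptor of interleukin 1, lie 4676 bases apart on the same strand and had log2 fold changes of -3.70 and -4.06. IL1R2 had 0.415 and 0.649 CPM with abemaciclib and 9.07 and 9.38 CPM without. Divergent pairs with transcription or RNA regulators that fell were LINC01135 with JUN (-1.49 and -0.71), LINC01436 with RUNX1 (-1.14 and -1.71) and LINC01137 with ZC3H12A (-0.91 and -1.14). Other members nearest to the same genes differed. LINC01426, 2914 bases from RUNX1, rose by 0.79 ± 0.15, and LINC02777, nearest to JUN, was not past the threshold (-0.42 ± 0.22). These pairs, like the others named here, were chosen after their values were seen.

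LINC02308 rose with STON2, an endocytic adaptor 5521 bases away, which had 62.1 and 61.9 CPM in abemaciclib spheres and 13.3 and 14.0 CPM in untreated spheres. Other neighbours did not move alike. LINC02202 starts 722 bases from the transcription factor gene EBF1, and rose by 1.95 ± 0.25 on the log2 scale while EBF1 fell by 0.87 ± 0.10. LINC02019 fell beside DOCK3, which had 29.2 and 28.3 CPM with abemaciclib and 13.9 and 15.1 CPM without. LINC00520 had the largest added level after LINC02154, and its nearest coding gene KTN1 had 193 and 191 CPM with abemaciclib and 191 and 194 CPM without. LINC00607, with a log2 fold change of 0.06 ± 0.25, lies 99082 bases from MREG, which had 65.1 and 64.8 CPM with abemaciclib and 3.37 and 2.87 CPM without.

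**Figure D5:**
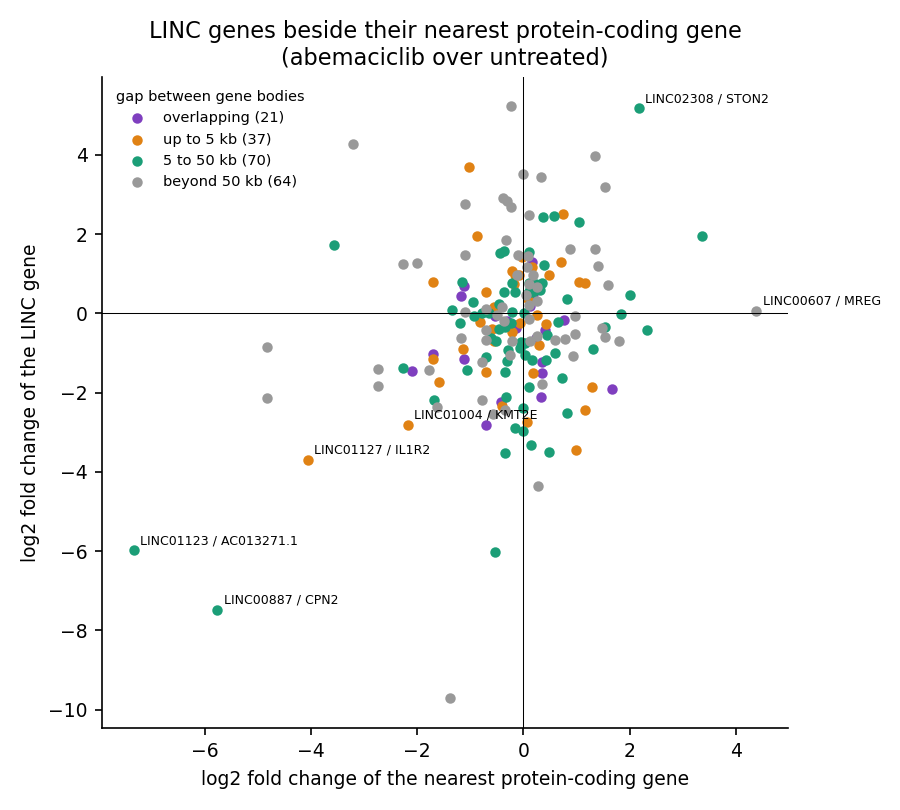
Each point is a LINC member, with the log2 fold change (abemaciclib over untreated) of its nearest protein-coding gene on the horizontal axis and its own on the vertical axis, coloured by the gap between the gene bodies. The 192 points lie on all sides of both zero lines. Of the pairs with both genes called, 19 both rose, 44 both fell, and 24 and 25 went opposite ways. Fitted values of members with 3 counts or fewer in a group, such as LINC00887, have no reliable size.

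Some members lie side by side. LINC01443 and LINC01444 overlap on opposite strands of chromosome 18, and both rose. LINC01444 had 16.6 and 16.8 CPM in abemaciclib spheres and 5.56 and 5.32 CPM in untreated spheres. LINC00652 and LINC00653 lie 193 bases apart on opposite strands of chromosome 20 and went opposite ways. LINC00652 had 1.25 and 1.54 CPM with abemaciclib and 0.259 and 0.458 CPM without, and LINC00653 had 0.831 and 0.709 CPM with abemaciclib and 1.70 and 2.05 CPM without. At the start of chromosome 1, LINC01409, LINC01128 and LINC00115 all fell, with log2 fold changes of -0.98, -0.85 and -2.14. LINC01128 and LINC00115 overlap on opposite strands, so their reads may not be separable.

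Promoter windows from RefSeq (GRCh38.p14, 250 bases before to 50 after the gene start) were found for 157 member names, and in 124 of them the start lay within 1 kb of the annotated start used here. The AP-1-like motif TGANTCA occurred on either strand in 16.6% of the members' windows, against 7.71% of 35116 windows of all genes. It takes any base at N, which is wider than the sites of JUN and FOS proteins, with C or G there. By direction it was in 17.0% of 53 windows of members that rose, 14.5% of 62 of those that fell and 19% of 42 others. The windows of members had fewer G and C bases, with a median of 50% for those that rose, 55.5% for those that fell and 55.7% for the others, against 58.7% over all windows. The motif CACGTGAC, an E-box of the kind found in lysosomal genes, was in 3 of 53 windows of members that rose, 0 of 62 that fell and 0 of 42 others, against 2.40% of all windows. It overlaps the hypoxia element ACGTG, which was in 28.3%, 27.4% and 16.7% of the same 3 sets and in 21.4% of all windows.

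Other motifs were searched on both strands. The CCAAT box, spelled as its name, was in 40.8% of the members' windows and in 34.6% of all windows. The cell cycle element TTTGAA was in 12.7% of the members' windows and in 15.2% of all. The E2F motifs TTTCCCGC or TTTGGCGC were in 1.91% of the members' windows and 2.27% of all. The cyclic AMP element TGACGTCA was in 3.18% of them and 1.85% of all. The TCF/LEF motif CTTTGAT was in 1.91% of them and 2.62% of all. A match is a run of letters, and binding was not measured.

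A member that rose and a member that fell with the AP-1-like motif, and 2 that rose with the E-box, are shown. The motif is in capitals, and each is read along its own strand:
LINC01443 (chr18:14946017-14946316, plus strand): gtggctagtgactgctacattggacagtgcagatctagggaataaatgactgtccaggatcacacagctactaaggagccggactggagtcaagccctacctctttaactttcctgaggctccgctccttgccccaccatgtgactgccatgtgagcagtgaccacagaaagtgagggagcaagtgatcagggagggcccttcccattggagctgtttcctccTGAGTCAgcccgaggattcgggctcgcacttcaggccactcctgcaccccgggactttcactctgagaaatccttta
LINC01807 (chr2:228611346-228611645, minus strand): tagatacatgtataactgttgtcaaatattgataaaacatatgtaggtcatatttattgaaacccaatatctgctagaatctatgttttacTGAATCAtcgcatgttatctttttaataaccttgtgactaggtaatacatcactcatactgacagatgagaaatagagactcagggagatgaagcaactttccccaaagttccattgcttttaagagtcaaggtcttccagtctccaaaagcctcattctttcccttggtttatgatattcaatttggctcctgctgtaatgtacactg
LINC00654 (chr20:5504547-5504846, minus strand): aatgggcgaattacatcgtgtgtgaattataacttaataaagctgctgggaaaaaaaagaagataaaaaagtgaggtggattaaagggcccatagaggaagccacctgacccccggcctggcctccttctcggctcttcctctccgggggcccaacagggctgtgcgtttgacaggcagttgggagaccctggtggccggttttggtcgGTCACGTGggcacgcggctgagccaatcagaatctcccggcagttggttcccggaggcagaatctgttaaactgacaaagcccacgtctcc
LINC01278 (chrX:63561046-63561345, minus strand): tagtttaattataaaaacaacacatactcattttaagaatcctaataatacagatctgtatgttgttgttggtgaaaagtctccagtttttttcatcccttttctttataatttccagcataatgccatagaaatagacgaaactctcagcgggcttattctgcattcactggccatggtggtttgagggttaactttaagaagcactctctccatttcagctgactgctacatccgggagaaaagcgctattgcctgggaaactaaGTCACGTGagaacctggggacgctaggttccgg
In LINC01443 the motif, as TGAGTCA, begins 27 bases before the gene start. In LINC01807 it has A in the middle, as TGAATCA, and begins 159 bases before the start. LINC01807 had 1.12 and 1.24 CPM in abemaciclib spheres and 3.41 and 2.93 CPM in untreated spheres. LINC00654 had 0.914 and 1.15 CPM with abemaciclib and 0.222 and 0.458 CPM without. LINC01278, which overlaps SPIN4, had 30.8 and 30.9 CPM with abemaciclib and 21.0 and 22.6 CPM without.

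Of 53 names of long noncoding RNAs outside the LINC numbering, 39 entries were tested, and 9 rose and 27 fell, with a median log2 fold change of -0.88. Over all tested genes 38.0% rose and 39.3% fell, with a median of -0.01. MEG3, an imprinted RNA, had 76.6 and 76.8 CPM with abemaciclib and 534 and 545 CPM without. MIR210HG, the host of the hypoxia-linked miR-210, had 2.37 and 3.04 CPM in abemaciclib spheres, against 83.7 and 76.2 CPM in untreated spheres. MIAT had 13.2 and 13.0 CPM with abemaciclib and 84.4 and 73.8 CPM without. Among those that rose, DANCR had 67.4 and 73.6 CPM with abemaciclib and 23.7 and 21.7 CPM without, and the nuclear scaffold RNA NEAT1 had 870 and 838 CPM with abemaciclib and 681 and 691 CPM without.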

How the data were processed

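Poly-A RNA was isolated with Trizol and prepared with a stranded kit (TruSeq Stranded mRNA), per the labels' protocols. The authors deposited 1 file of expected counts per library, unscaled estimates per gene that need not be whole, per the file headers. STAR 2.7.2b, RSEM 1.3.1 and the build GRCh38 appear in the submitters' processing notes. For trimming, annotation release and strandedness of the counting, settings are not given in the sources used here. Of each library's values, 6.13% to 6.70% were not whole.

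Rounded counts entered edgeR 4.0.16 (with limma 3.58.1, R 4.3.3): filterByExpr, TMM, quasi-likelihood, robust, group alone, two-sided, Benjamini-Hochberg over the 17207 genes left. CPM values are TMM-scaled, and the common dispersion was 0.000818. The standard error is the log2 fold change divided by the square root of F. Ratios with 1 to 3 counts in a group have exact 95% Clopper-Pearson intervals, and bounds use a floor of 3 counts over the group; both cover counting error only. Positions and types came from GENCODE release 29 on GRCh38, matched by identifier, in which 23 of the 238 members carry another name. Levels per kb divide CPM by the union of annotated exons.

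Named genes were the 12 highest and 12 lowest log2 fold changes among called members with groups apart, the 10 highest per kb, the 10 most abundant not past the threshold, the 3 on each side of the minimum, and all detected members of the role lists. Members and lists were chosen with earlier results of these data known. DESeq2 1.42.0, other scalings, filters, minimums, overlap rules and libraries left out were the alternatives. Some genes of the lists are not reported here.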

Additional observations from a re-analysis of the deposited data

How the results depend on the processing

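No member reversed its call under DESeq2, RLE scaling, library totals only, no filter, removal of mitochondrially encoded genes, unrounded counts, the replicate block or any library left out. DESeq2 called 58 members higher and 81 lower, and 139 of the 174 calls were kept. Leaving out 1 library in turn, with the lone library assumed to vary like the other group, gave 64 to 66 higher, 90 to 94 lower, 48 to 52 and 64 to 66 past 2-fold, and medians of -0.28 to -0.20. Over the tested genes, deviations of same-numbered libraries from their group means had a correlation of -0.00022. With 2 libraries per group, this cannot show whether same-numbered libraries shared a culture or batch. With the replicate block, 68 were higher and 102 lower, and 170 calls were kept. With library totals only, 75 were higher and 97 lower. A minimum of 20 gave 77 members at least 2-fold higher and 85 at least 2-fold lower among 304. A minimum of 500 gave 24 higher and 44 lower among 79, with 13 and 18 past 2-fold. The 112 members overlapping no other gene gave 40 higher and 44 lower, 29 and 28 past 2-fold, and a median of 0.00. Restricted, after seeing the data, to members typed lincRNA or with whole counts, the medians were -0.07 and -0.02. These sets hold fewer members. Of the named genes, LINC00294, LINC00460, LINC00467 and LINC01842 lost their calls under some settings. LINC00294 (log2 fold change -0.17 in the test as reported) lost it under DESeq2, library totals only and without 3 of the 4 libraries in turn, with adjusted p from 0.0633 to 0.159. Depth limits members with few counts, where 3 counts correspond to about 0.1 CPM.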
